A study of Mus musculus with 4 samples.

Results

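The genes described here encode the nuclear pore and the carriers that use it. They are the mouse genes whose symbol is Nup, Xpo, Ipo or Tnpo followed by a number, or Kpna or Kpnb followed by a number, together with Ran, Rangap1, Ranbp1, Ranbp2 and Rcc1. The rule took 48 genes with 67 probes, of 20280 genes with a symbol on the array, and it read symbols only. The family itself was selected on results of the same arrays, since the differences between the groups were known when it was taken up, so its counts are a description and not support for a direction. Of these, 45 were well above background on all 4 arrays and were tested. Kpna7, Nup62cl and Nup210l were not: the probes of the first 2 were above background on 0 of 4 arrays, and that of Nup210l on 1.

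The cells were lymphoid-primed multipotent progenitors (LMPP) of mouse bone marrow, an early blood-forming population that can still give lymphoid and myeloid cells. All came from IRF8-GFP knock-in mice, in which green fluorescent protein marks cells that make IRF8. This transcription factor acts in monocyte and dendritic cell development. Cells without lineage markers, IL-7R and CD150 and with Sca-1, CD117, CD34 and CD135 on their surface were sorted on magnetic columns and by flow cytometry into LMPP negative and LMPP positive for IRF8-GFP. Each group had 2 arrays, called exp1 and exp2 in both. The zygosity of the reporter, the strain, age and number of animals, and whether exp1 and exp2 are different animals, are not given in the labels. Each p-value therefore reflects the scatter of these arrays alone, and that scatter may be technical. The sort sets LMPP that express the reporter against those that do not.

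The nuclear pore is a ring of nucleoporins set in the nuclear envelope. A Y-shaped complex and an inner ring form its scaffold, nucleoporins rich in phenylalanine-glycine repeats line the channel, and filaments and a basket extend to either side. Importins carry proteins in and exportins carry proteins and RNA out. The small GTPase Ran gives this traffic its direction, because Rcc1 loads it with GTP on chromatin and Rangap1, helped by Ranbp1 and Ranbp2, makes it hydrolyse that GTP in the cytoplasm. Dividing cells take the pore apart and rebuild it in every mitosis.

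Signals are log2 values relative to the 75th percentile of their array, and a difference is the mean of the positive arrays minus that of the negative arrays. Irf8 itself lay at 1.64 and 1.60 in negative LMPP and 5.13 and 5.22 in positive LMPP, an 11.7-fold difference in the direction of the sort. Of 59305 spots, 29631 to 33681 per array were well above background. The median difference over all 22362 genes and unnamed transcripts tested was 0.16, and differences of single genes are best read against it. In total RNA of sorted cells, a change in the makeup of the population and a change in RNA per cell cannot be told apart.

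Most of these genes were higher in IRF8-GFP positive LMPP. In limma's test, adjusted by the Benjamini-Hochberg method over all genes with a threshold of 0.05, 39 of 45 were higher, 1 was lower (Tnpo2) and 5 did not pass. Over all genes tested 38.5% were called higher and 21.4% lower, and over the 13341 with a symbol 44.1% and 19%. The differences ran from -0.37 for Tnpo2 to 1.58 for Kpna2, with a median of 0.67. All members but Tnpo2 had a difference above 0, 40 lay above the median of all genes, and 7 were at least 2-fold higher. On the array level, the median signal of the 45 genes was 2.41 and 2.40 in negative LMPP and 2.99 and 3.0 in positive LMPP. For 42 of the 45 (93.3%) the groups did not overlap, against 82.2% of all genes. The exceptions were Tnpo3, Ipo11 and Xpo7. Most members were bright. In the brightest of 4 equal groups of genes by mean signal, the share without overlap was 90.9% for members and 92% for all genes. In the next brightest it was 95% and 88.1%, so the count is near that of genes of like signal.

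**Figure D1:**
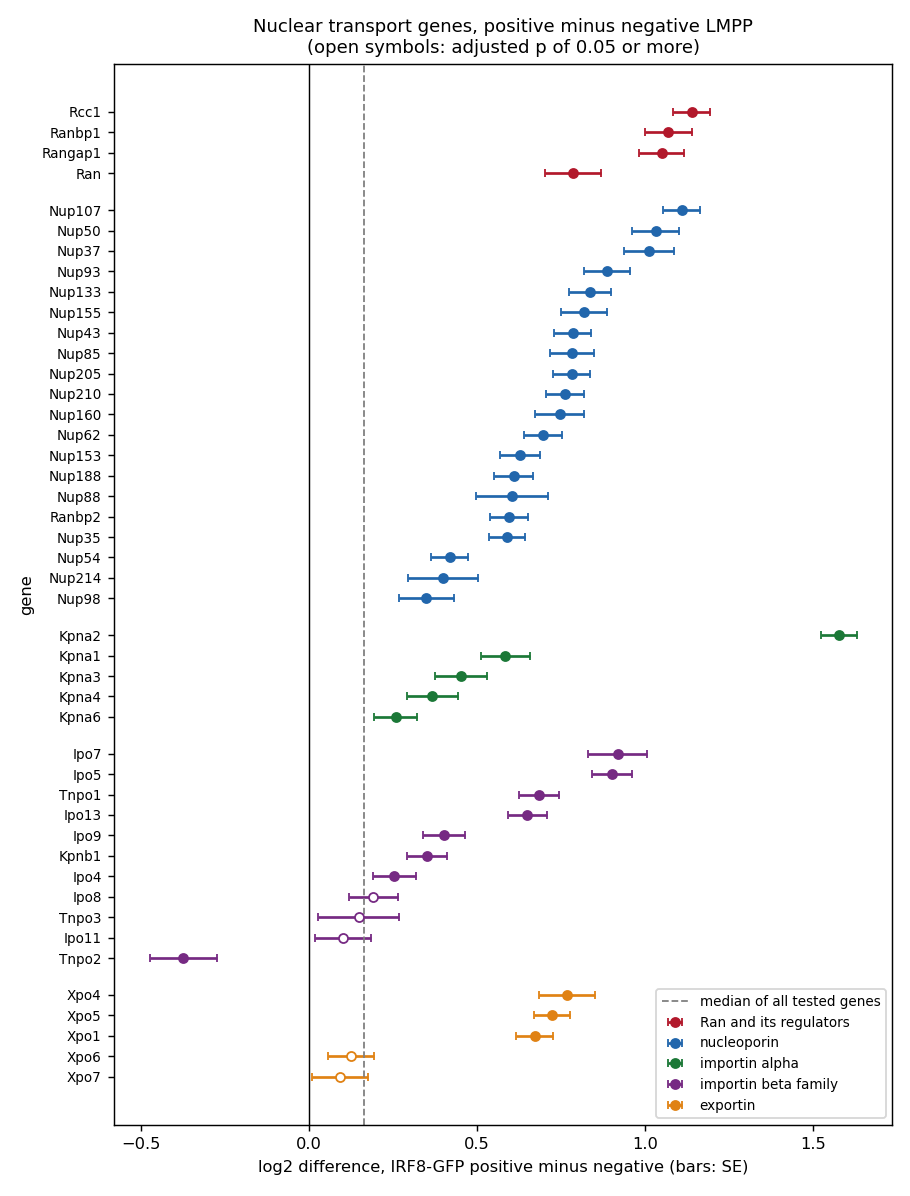
Log2 difference of each of the 45 tested genes, IRF8-GFP positive minus negative, with the SE of the fit as bars; colours give the role, open symbols genes that did not pass, and the dashed line the median of all tested genes (0.16). The nucleoporins and Ran with its regulators all lie to the right of that line, and the carriers spread from Tnpo2 at -0.37 to Kpna2 at 1.58.

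Several measures moved with this result, and their part in it was not tested. Genes of the cell cycle rose as well: all 15 of a list of S phase genes were higher, with a median difference of 0.72, and all 15 of a list of G2 and M phase genes, with a median of 1.23. The summed signal of the S phase list, in multiples of the array's 75th percentile, was 564 to 571 in the negative and 935 to 962 in the positive group, and that of the G2 and M list 195 to 201 and 432 to 443. Difference also went with brightness: 22 of the 45 genes were in the brightest of 4 equal groups of genes by mean signal, where 67.1% of all genes were called higher and the median difference was 0.39. The 22 members in that group had a median of 0.77, and the 20 in the next brightest group had 0.59 against 0.19 for all genes there. In the brightest group 20 of the 22 were called higher, and 17 of 20 in the next, where 44.6% of all genes were called higher.

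**Figure D2:**
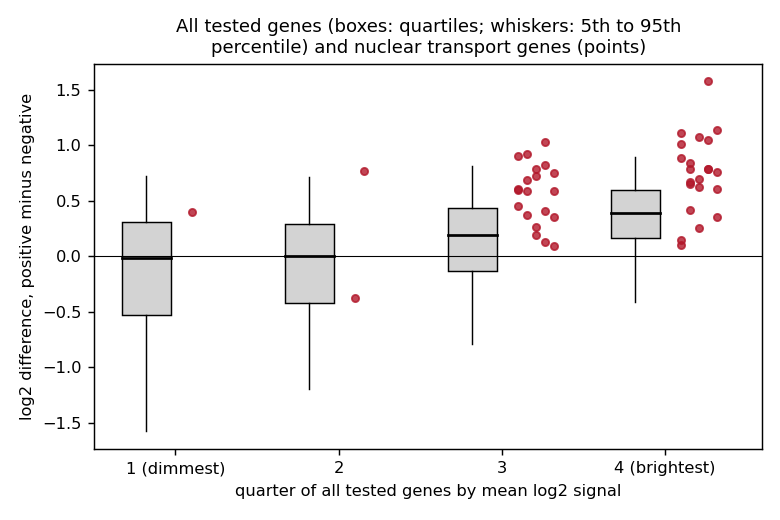
Log2 differences of all tested genes in 4 equal groups by mean signal (boxes span the quartiles with the median as a line, whiskers the 5th to 95th percentile) and of the 45 nuclear transport genes (points). In the brightest group the members had a median of 0.77 and all genes 0.39; in the next one the medians were 0.59 and 0.19.

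Markers of other blood cells differed between the groups too, and their part in the result was not tested. All 6 monocyte and macrophage markers were higher in the positive group, with a summed signal of 9.48 to 9.69 in the negative and 86.1 to 90.0 in the positive arrays, and all 6 were above background on all 4 arrays. All 6 megakaryocyte markers were lower, with sums of 17.1 to 18 and 4.14 to 4.16. The lists for other cells were detected in part. Of 6 B cell markers Cd79b was above background on all 4 arrays and Ms4a1 and Ebf1 on 0, with sums of 10.4 to 11 and 13.5 to 14. Of 6 T and NK cell markers Cd3e and Cd4 were above background on all 4 and Cd3d, Cd3g, Cd8a and Ncr1 on 0, with sums of 4.05 to 4.91 and 5.16 to 5.76. Of 6 neutrophil markers Camp and S100a9 were detected on all 4 and Ltf, Ngp and Mmp8 on 0, with sums of 0.843 to 0.874 and 0.476 to 0.563. Of 6 dendritic cell markers Itgax, Batf3, Zbtb46 and Siglech were detected on all 4 and Xcr1 on 0, with sums of 98.6 to 144 and 94.1 to 119. Siglech dominates these sums, with 7.15 and 6.61 in negative and 6.86 and 6.51 in positive LMPP. It and Zbtb46 did not pass, whereas Itgax (1.34), Batf3 (1.18) and Clec9a (5.02) were called higher. Clec9a was above background on the 2 positive arrays alone, so the size of its difference is uncertain. Of 6 markers of stroma and endothelium Kdr, Pecam1, Cxcl12 and Col1a2 were detected on all 4 and Cdh5 on 0, with sums of 10.6 to 12.2 and 12.6 to 16.2. Genes of the sorting gate differed as well, and all named here were above background on all 4 arrays. Il7r, whose protein the cells were sorted to lack, was 5.26-fold higher in positive LMPP (log2 2.40, SE 0.06, limma adjusted p = 0.000835). The Sca-1 gene Ly6a had a difference of -0.96 and the CD117 gene Kit of -0.39, and both were called lower. Cd34 had 0.26 and the CD135 gene Flt3 0.25, and both were called higher. These 2 depended on the processing: Cd34 ran from -0.21 to 0.30 and Flt3 from -0.23 to 0.28, and each turned sign in 4 settings.

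The scaling of the arrays moved the size of the differences and the number of genes called. Under the 8 scalings the median of all genes ran from -0.14 with spike-in controls to 0.20 with normexp background correction, and the median of the 45 genes from 0.36 with spike-in controls or cyclic loess, which removes the trend with brightness, to 0.67. The number called higher was 39 with the 75th percentile, 33 with quantile normalization and also in the deposited matrix, 31 with cyclic loess and 29 with spike-in controls. Over all genes the share of higher calls among all calls went from 64.3% with the 75th percentile to 28.9% with spike-in controls and 73.7% with normexp. Between 38 and 40 of the 45 lay above the median of all genes under each of the 8. The 8 are not independent. The deposited matrix gave the same counts as quantile normalization (33 higher, 0 lower), and centring on array medians the same as the 75th percentile (39 higher, 1 lower). When differences were centred on that median, an alternative chosen after seeing the data, 33 were higher and 1 lower. Of all genes tested, 5383 were then called higher and 6337 lower.

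**Figure D3:**
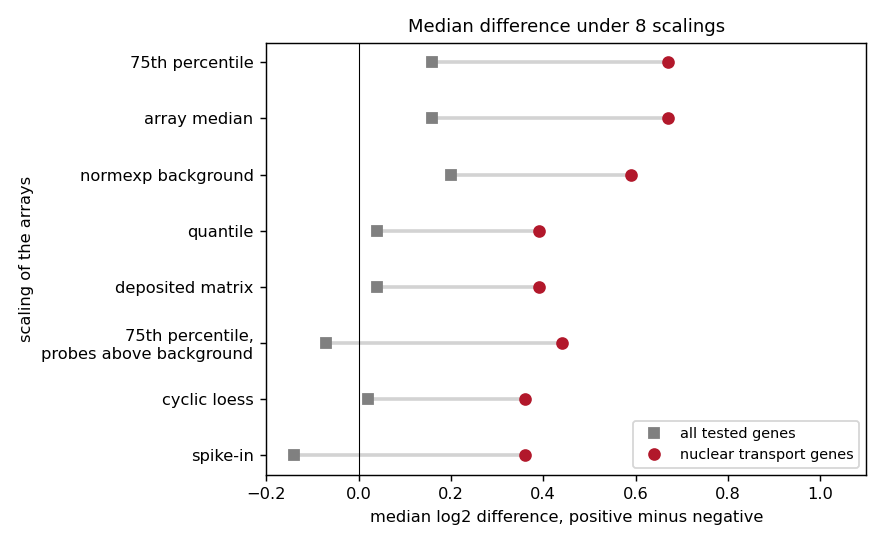
Median log2 difference, positive minus negative, of the 45 nuclear transport genes (circles) and of all tested genes (squares) under 8 scalings of the arrays. The circles lie between 0.36 and 0.67, to the right of the squares, which lie between -0.14 and 0.20.

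The sequences before the start of genes that moved together are shown for Kpna2, Rcc1, Ranbp1 and Nup107, the genes with the 4 largest increases, and for Tnpo2, the single gene that was lower. RefSeq promoters on GRCm38.p6 were found for 39 of the 48 genes, as 46 windows, some of which overlap. Each sequence is the 250 bases before the annotated start, 5′ to 3′ on the strand of the gene. Capitals mark matches on either strand to 5 short motifs: the CCAAT box (CCAAT), an E2F motif (TTCCCGC), the cell cycle homology region or CHR (TTTGAA), the E-box bound by Myc and its relatives (CACGTG) and the motif of the respiratory factor NRF1. Kpna2 is at chr11:106999526-106999775, minus strand; Rcc1 at chr4:132345751-132346000, minus strand; Ranbp1 at chr16:18248695-18248944, minus strand; Nup107 at chr10:117792706-117792955, minus strand; and Tnpo2, the upstream of 2 windows, at chr8:85036643-85036892, plus strand.
Kpna2: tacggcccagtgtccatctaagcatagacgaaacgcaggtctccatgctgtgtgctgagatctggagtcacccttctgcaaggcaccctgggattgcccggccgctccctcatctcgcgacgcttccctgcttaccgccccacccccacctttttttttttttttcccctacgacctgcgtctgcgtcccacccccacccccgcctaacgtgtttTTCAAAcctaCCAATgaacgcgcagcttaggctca
Rcc1: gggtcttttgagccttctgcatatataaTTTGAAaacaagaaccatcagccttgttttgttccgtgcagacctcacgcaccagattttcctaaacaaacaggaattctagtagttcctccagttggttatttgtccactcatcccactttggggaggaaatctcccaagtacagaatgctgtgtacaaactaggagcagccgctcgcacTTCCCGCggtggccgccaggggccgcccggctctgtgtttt
Ranbp1: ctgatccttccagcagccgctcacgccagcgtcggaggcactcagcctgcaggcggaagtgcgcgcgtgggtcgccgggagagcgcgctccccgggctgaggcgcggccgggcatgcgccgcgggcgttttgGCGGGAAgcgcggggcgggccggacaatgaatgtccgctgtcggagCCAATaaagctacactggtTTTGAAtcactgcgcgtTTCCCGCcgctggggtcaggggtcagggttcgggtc
Nup107: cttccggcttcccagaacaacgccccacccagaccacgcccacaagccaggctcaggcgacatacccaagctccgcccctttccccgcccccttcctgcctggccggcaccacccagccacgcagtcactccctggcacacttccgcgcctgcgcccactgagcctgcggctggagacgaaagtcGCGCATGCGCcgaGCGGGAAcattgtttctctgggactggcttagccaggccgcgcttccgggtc
Tnpo2: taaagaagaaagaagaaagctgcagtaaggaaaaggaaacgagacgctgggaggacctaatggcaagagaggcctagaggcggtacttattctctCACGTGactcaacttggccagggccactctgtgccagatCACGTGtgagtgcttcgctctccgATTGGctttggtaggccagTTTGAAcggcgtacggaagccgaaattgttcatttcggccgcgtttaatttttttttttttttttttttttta

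A match is only a run of letters. Kpna2 held a CHR and a CCAAT box 35 and 25 bases before the start. Ranbp1 held 2 E2F motifs, a CCAAT box and a CHR, Rcc1 an E2F motif and a CHR, and Nup107 an E2F motif beside an NRF1 motif. Tnpo2 held 2 E-boxes, a CCAAT box and a CHR, so the CCAAT box and the CHR were not limited to genes that rose. Its window held no E2F or NRF1 motif. Over the 46 windows, the E2F motif was in 10.9% against 3.82% of all 32851 promoters of that length, the NRF1 motif in 10.9% against 0.782%, the E-box in 15.2% against 6.02%, the CCAAT box in 47.8% against 33.8% and the CHR in 21.7% against 16%. The windows with an NRF1 motif were those of Nup107, Nup50, Nup62, Ran and Xpo5. The composite motif on which PU.1 and IRF8 can bind together was in 0 of the 46 windows and in 2.3% of all promoters. These shares are descriptions with no test.

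Ran and its regulators rose together, and all 4 (Ran, Rcc1, Rangap1 and Ranbp1) were called higher under every alternative tried. Rcc1, the exchange factor that loads Ran with GTP on chromatin, lay at 3.85 and 3.90 in negative LMPP and 5.01 and 5.02 in positive LMPP. That is a 2.20-fold difference (log2 1.14, SE 0.06, limma adjusted p = 0.00147). Rangap1, the protein that makes Ran hydrolyse GTP, lay at 3.32 and 3.43 in negative LMPP and 4.44 and 4.40 in positive LMPP. It was 2.07-fold higher (log2 1.05, SE 0.07, adjusted p = 0.00187). For both genes the replicates lay close together and the groups far apart.

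Ranbp1, which assists Rangap1 by binding Ran with GTP, had values of 4.08 and 4.10 in negative LMPP and 5.10 and 5.22 in positive LMPP. It was 2.10-fold higher (log2 1.07, SE 0.07, limma adjusted p = 0.00188). Ran itself lay at 7.53 and 7.48 in negative LMPP and 8.38 and 8.20 in positive LMPP, where the replicates were farther apart than those of its regulators. Its difference of 0.79 (SE 0.08, adjusted p = 0.00356) is 1.72-fold. A further probe for Ran gave 0.85. The difference of Ran fell to 0.31 with cyclic loess, its lowest value over the alternatives, while Rcc1 stayed at 0.77 or above and Rangap1 and Ranbp1 at 0.69 or above.

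**Figure D4:**
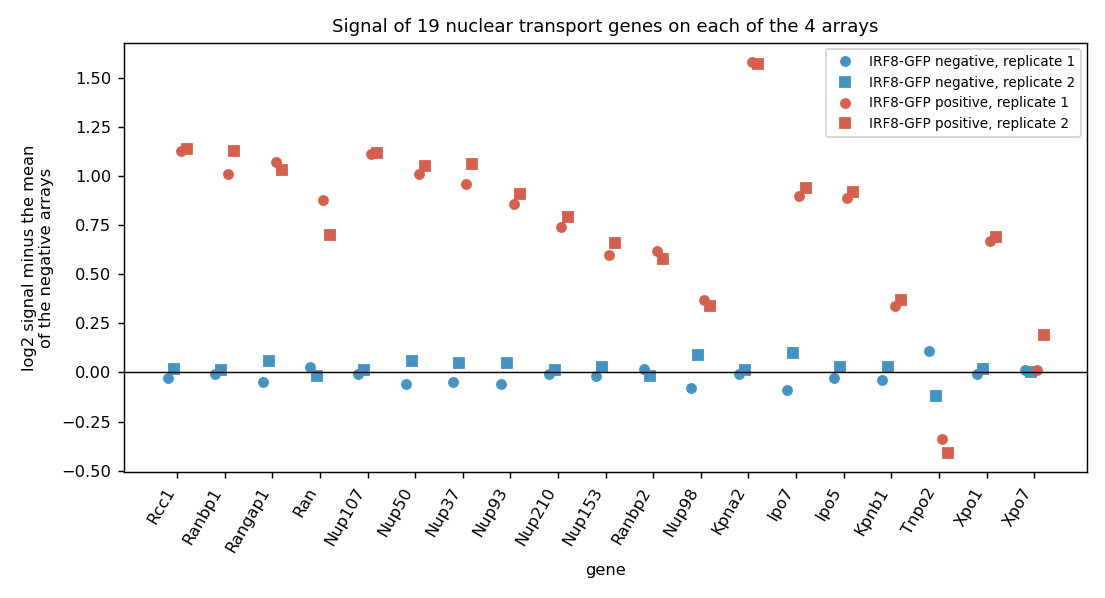
Log2 signal of 19 genes on each array, minus the mean of the 2 negative arrays (blue: IRF8-GFP negative, red: positive; circles: replicate 1, squares: replicate 2). The red points lie above the blue for every gene but Xpo7, where the groups overlap, and Tnpo2, where they lie below.

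All 20 tested genes for pore proteins, Ranbp2 included, were called higher, with differences from 0.35 for Nup98 to 1.11 for Nup107 and a median of 0.75. All 20 kept a difference above 0 under each of the 8 scalings, and between 16, with spike-in controls, and 20 of them were called. The 6 genes of the Y complex, the outer scaffold, that the symbol rule takes lay between 0.75 and 1.11, and all 6 were called under each scaling. Y complex genes outside the rule were in part lower: Sec13 had 0.79, Seh1l 0.51 and Ahctf1 0.45. Nup107 lay at 4.03 and 4.05 in negative LMPP and 5.15 and 5.16 in positive LMPP, a 2.16-fold difference (log2 1.11, SE 0.05, limma adjusted p = 0.00147). Nup37, which sits on the long arm of the Y, lay at 3.20 and 3.30 in negative LMPP and 4.21 and 4.31 in positive LMPP and was 2.02-fold higher (log2 1.01, SE 0.07, adjusted p = 0.00213).

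The other 4 Y complex genes taken by the rule were close to each other. Their differences were 0.84 for Nup133, 0.79 for Nup43, 0.78 for Nup85 and 0.75 for Nup160, each with an SE of 0.06 or 0.07 (0.055 for Nup43) and adjusted p-values between 0.00204 and 0.00309. The inner ring, which anchors the scaffold to the membrane and the channel, rose in all 5 of its genes. Nup93, its central adaptor, lay at 4.13 and 4.24 in negative LMPP and 5.05 and 5.10 in positive LMPP, 1.85-fold higher (log2 0.89, SE 0.07, limma adjusted p = 0.00222). Nup155 had a difference of 0.82, Nup205 of 0.78, Nup188 of 0.61 and Nup35 of 0.59. All 5 inner ring genes were called under each of the 8 scalings.

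On the nuclear side, the basket nucleoporin Nup50, which helps importin alpha release its cargo, lay at 0.69 and 0.81 in negative LMPP and 1.76 and 1.80 in positive LMPP. It was 2.05-fold higher (log2 1.03, SE 0.07, limma adjusted p = 0.00195). Nup153, which anchors the basket, lay at 2.52 and 2.57 in negative LMPP and 3.14 and 3.20 in positive LMPP, a difference of 0.63 (SE 0.06, adjusted p = 0.00297). The replicates of both basket genes lay closer together than the groups.

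On the cytoplasmic side the differences ran from 0.40 to 0.61, with the upper end near the 0.63 of Nup153. Ranbp2, a giant filament protein that binds Ran and acts as a SUMO ligase, lay at 2.29 and 2.25 in negative LMPP and 2.89 and 2.85 in positive LMPP, a difference of 0.59 (SE 0.06, limma adjusted p = 0.00304). Nup88, its neighbour on that face, had a difference of 0.61 with a wider SE of 0.11 (adjusted p = 0.0121). Nup214, an export platform, had 0.40 (SE 0.10, adjusted p = 0.0331) and was the dimmest of the 45 relative to all genes, the single member in the dimmest of the 4 groups by signal. Both calls were lost without negative replicate 1 (adjusted p = 0.0685 for Nup88 and 0.077 for Nup214). Nup88 also did not pass with quantile normalization, cyclic loess or spike-in controls (0.0558, 0.0694 and 0.0529), and Nup214 without negative replicate 2 (0.146) or positive replicate 1 (0.0753) or with spike-in controls (0.597).

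The channel nucleoporins Nup62 and Nup54 had differences of 0.70 and 0.42. Nup54 lost its call under 5 of the 7 other scalings, among them quantile normalization and spike-in controls (limma adjusted p of 0.0536 and 0.182). Without negative replicate 2 its difference was 0.41. Nup98, a mobile repeat nucleoporin of both faces that is known from leukaemia fusions, moved least. Its values were 0.18 and 0.35 in negative LMPP and 0.63 and 0.60 in positive LMPP, a difference of 0.35 (SE 0.08, limma adjusted p = 0.0244). Without negative replicate 1, positive replicate 1 or positive replicate 2 it did not pass (adjusted p of 0.0965, 0.0653 and 0.0539). Its difference came to 0.04 with spike-in controls (limma adjusted p = 0.688) and to 0.12 with the percentile over probes above background on all arrays (0.267).

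The membrane nucleoporin Nup210, a protein of the pore membrane whose expression differs between tissues, lay at 6.55 and 6.57 in negative LMPP and 7.30 and 7.35 in positive LMPP, a difference of 0.76 (SE 0.06, limma adjusted p = 0.00216). Its other probe, with signals of 0.80 and 0.92 in negative LMPP and 0.89 and 0.98 in positive LMPP, gave 0.07 and did not pass (adjusted p over probes of 0.455). The rise of Nup210 thus rests on its brighter probe.

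Importin alpha proteins, which hold the nuclear localisation signal of a cargo, differed widely among themselves. Kpna2, the form known for high levels in dividing cells, lay at 4.91 and 4.93 in negative LMPP and 6.50 and 6.49 in positive LMPP. It was 2.98-fold higher (log2 1.58, SE 0.05, limma adjusted p = 0.00114), and 99.4% of all tested genes had a smaller difference. Its 4 probes gave 1.57 to 1.62. The other 4 tested forms lay far below: Kpna1 at 0.58 (adjusted p = 0.00493), Kpna3 at 0.45 (0.011), Kpna4 at 0.37 (0.0191) and Kpna6 at 0.26 (0.0289). All 5 were called higher, but with spike-in controls or cyclic loess Kpna2 and Kpna1 alone were, and Kpna6 turned to -0.05 and -0.01.

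The last 3 of these calls also hung on single arrays. Kpna3 was lost when either negative array was left out (adjusted p of 0.0605 and 0.0702), and Kpna4 without either negative array or positive replicate 2 (0.0974, 0.059 and 0.0526). Kpna6 did not pass without either negative array or positive replicate 2 (0.109, 0.142 and 0.0875).

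Of the 11 tested importins of the beta family, 7 were higher, 1 was lower and 3 did not pass, with a median difference of 0.35. Ipo7, an importer of ribosomal proteins and other basic cargo, lay at 0.34 and 0.53 in negative LMPP and 1.33 and 1.37 in positive LMPP, 1.89-fold higher (log2 0.92, SE 0.09, limma adjusted p = 0.00298). Ipo5, with overlapping cargo, lay at 2.13 and 2.19 in negative LMPP and 3.05 and 3.08 in positive LMPP, 1.87-fold higher (log2 0.90, SE 0.06, adjusted p = 0.00191), and its 2 probes gave the same difference of 0.90. Tnpo1, which carries hnRNP proteins, had 0.68 and Ipo13 had 0.65, and these 4 importins were called under each of the 8 scalings.

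Kpnb1, the importin beta that pairs with importin alpha, moved much less than Kpna2. It lay at 2.84 and 2.91 in negative LMPP and 3.22 and 3.25 in positive LMPP, a difference of 0.35 (SE 0.06, limma adjusted p = 0.0109). Leaving out either negative array lost the call (adjusted p of 0.0723 and 0.053) and came to 0.04 with spike-in controls and with cyclic loess. Ipo9 had a difference of 0.40 (adjusted p = 0.00884, and 0.0597 without negative replicate 1), which came to 0.10 with spike-in controls (0.243) and 0.17 with the percentile over probes above background on all arrays (0.0746). Ipo4 had 0.25 (adjusted p = 0.03), not passing without either negative array or positive replicate 1 (0.12, 0.141 and 0.0949) and below 0 under 4 scalings. Ipo8 at 0.19, Tnpo3 at 0.15, which carries SR splicing factors, and Ipo11 at 0.10 did not pass, with adjusted p-values of 0.0853, 0.335 and 0.338. Without positive replicate 1, Tnpo3 had 0.30 and passed (adjusted p = 0.0397).

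Tnpo2, a close relative of Tnpo1, was the single gene of the family called lower. It lay at 0.12 and -0.11 in negative LMPP and -0.33 and -0.40 in positive LMPP, so the groups did not overlap but the negative arrays stood 0.23 apart. The difference was -0.37 (SE 0.10), or 1.30-fold lower (limma adjusted p = 0.0359). The call was lost without negative replicate 1, positive replicate 1 or positive replicate 2 (adjusted p of 0.112, 0.0634 and 0.0906) and under quantile normalization (0.0527). Its sign held under every alternative, from -0.26 to -0.68.

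Exportins fell into 2 sets. Xpo1, the main exporter of proteins with a leucine-rich signal, lay at 2.87 and 2.90 in negative LMPP and 3.55 and 3.57 in positive LMPP, 1.59-fold higher (log2 0.67, SE 0.05, limma adjusted p = 0.00234), and its other probe gave 0.88. Xpo4 had a difference of 0.77 (SE 0.08, adjusted p = 0.00383) and Xpo5, the exporter of microRNA precursors, 0.72 (SE 0.05, adjusted p = 0.00217). These 3 were called under each of the 8 scalings. Xpo6, the exporter of actin, had 0.13 and Xpo7 0.09, with adjusted p-values of 0.186 and 0.373, and both lie below the median of all genes.

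Xpo7, an exportin prominent in maturing red cells, gave a different answer on each of its 2 probes. The brighter one lay at 0.32 and 0.31 in negative LMPP and 0.32 and 0.50 in positive LMPP. The dimmer one lay at -0.23 and -0.29 in negative LMPP and -2.26 and -1.53 in positive LMPP, a difference of -1.63 (SE 0.26, limma adjusted p over probes of 0.0107). Both probes were above background on all 4 arrays. No direction can be given for the gene as a whole. Of the 12 genes with several probes above the filter, 9 had all their probes within 0.25 of each other, and the other 3 were Xpo7, Nup210 and Tnpo1, whose probes gave 0.68 and 0.28.

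**Figure D5:**
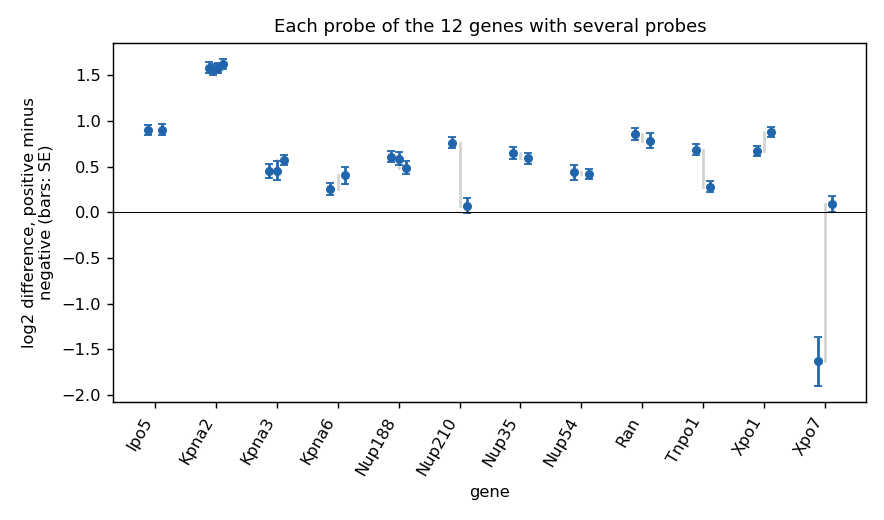
Log2 difference, positive minus negative, of every probe above the filter for the 12 genes with several probes, with the SE of the fit over probes as bars. The 4 probes of Kpna2 lie between 1.57 and 1.62, whereas those of Xpo7 lie at 0.09 and -1.63.

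Genes of the pathway that the symbol rule leaves out were described from separate lists, beside the 38.5% of all genes called higher and 67.1% in the brightest of the 4 groups by signal. All 11 further nucleoporin genes were higher, with a median difference of 0.56, and 3 of them lie in that brightest group. Ndc1, which anchors the pore in the membrane, had the largest (1.23, SE 0.06, limma adjusted p = 0.00152), followed by Sec13 of the Y complex and of secretory coats at 0.79 and Nupl2 at 0.72. With spike-in controls 6 of the 11 were called. Of 19 further carriers and Ran or export factors 14 (73.7%) were higher and 5 did not pass, with a median of 0.36, and 7 lie in the brightest group. Nutf2, which returns Ran to the nucleus, led with 0.78 (SE 0.06, adjusted p = 0.00229), then the cap-binding gene Ncbp1 with 0.69 and Cse1l, the exporter of importin alpha, with 0.67. With spike-in controls 7 of these 19 were higher and 2 lower.

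Of 21 genes of messenger RNA export 17 (81%) were higher and 4 did not pass, with a median difference of 0.56, and 12 of the 21 lie in the brightest group, where 67.1% of all genes were called higher. Alyref, the adaptor that hands messages to the export receptor, had 0.98 (SE 0.06, limma adjusted p = 0.00172), Nxt1, the partner of that receptor, 0.82 and the helicase gene Ddx39a 0.80. Nxf1, the receptor itself and named here after its value was seen, had 0.24 (adjusted p = 0.0305), and its sign turned with spike-in controls, cyclic loess, quantile normalization and in the matrix. Thoc1, Thoc2, Nxt2 and Zc3h11a were the 4 that did not pass. With spike-in controls 12 of the 21 were higher and 3 lower.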

How the data were processed

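Total RNA was labelled with Cy3 and hybridised to 1-colour Agilent arrays, 2 per group. The deposited scanner files, made with Agilent Feature Extraction 10.7.3.1 per the file headers, give processed intensity per spot. A deposited matrix holds normalized intensities, with no statement of how they were normalized, and their log2 was taken for the comparison. Control spots and outlier flags were left out, spots of a probe were averaged, and log2 values were taken minus the array's 75th percentile. Probes well above background on both arrays of a group were kept, and the brightest of these stood for its gene. limma 3.58.1 (R 4.3.3) was fitted on group over 22362 genes and unnamed transcripts, with p-values adjusted by the Benjamini-Hochberg method at 0.05. The code was tested on simulated data. Accessions were named through RefSeq, which gave 26756 of 55669 probes 1 symbol. Full values are given for 19 members: the 10 largest increases and up to 10 decreases among called genes whose groups do not overlap, 11 fixed genes, and genes whose probes disagree in sign or by over 1. The members and all lists were chosen with earlier results of these data known, and promoter motifs after the data were seen, so counts over them are descriptions. Alternatives were other scalings, background corrections, filters, probe choices and variance settings, a replicate block, and leaving out each array. The number of arrays limits the precision.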

Additional observations from a re-analysis of the deposited data

How the results depend on the processing

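Over 20 alternatives, 28 of the 40 called members kept their direction and their call. The number called higher was 39 with the replicate block, 31 at an adjusted p of 0.01 and 30 with the percentile taken over probes above background on all arrays. Of all genes tested, 9094, 5002 and 4382 were called higher in these 3 settings. Without 1 array the median difference of the members was 0.66 to 0.68, against 0.15 to 0.18 for all genes tested. The number called lower was 0 in the deposited matrix, with quantile normalization, without a filter and at 0.01 (by limma at an unadjusted p under 0.05 it was 2, 2, 1 and 1), and 2 with the mean of a gene's probes and, added after seeing the data, with the dimmest kept probe. The replicate numbers were not taken to pair the arrays, because the labels do not say that they do. Same-numbered deviations from the group means correlated at 0.097. Scaling had already removed shifts of whole arrays, so this value cannot show whether the numbers mark batches. With the replicate block 9094 genes were higher and 4852 lower, and no member's call changed. The median was 0.59 with normexp, 0.39 with quantile normalization and in the matrix, 0.44 with the percentile over probes above background on all arrays, 0.36 with spike-in controls and cyclic loess, 0.63 with the mean of a gene's probes, 0.65 with the dimmest, and 0.51 when centred on all genes. Signs turned for few members, and the cause was not tested. With quantile normalization and in the matrix Ipo4 was -0.02, Tnpo3 -0.19 and Ipo11 -0.22. With the percentile over probes above background Ipo8 was -0.04, Tnpo3 -0.09, Xpo6 -0.11, Ipo11 -0.13 and Xpo7 -0.14. With spike-in controls Kpna6 and Ipo4 were -0.05, Ipo8 -0.12, Tnpo3 -0.16, Xpo6 -0.18, and Ipo11 and Xpo7 -0.21. With cyclic loess Kpna6 was -0.01, Ipo4 -0.07, Tnpo3 -0.22 and Ipo11 -0.26. Centred on all genes Tnpo3 was -0.01, Xpo6 -0.04, Ipo11 -0.06 and Xpo7 -0.07. Xpo7 was -0.77 with the mean of its probes and -1.63 with the dimmer one. Without 1 array Tnpo3 ran from 0 to 0.30.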

Other observations

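The nuclear lamina and envelope, to which the pore is anchored, did not move as one. Of 9 genes 5 (55.6%) were higher, 1 was lower and 3 did not pass, with a median difference of 0.52. Of the 9, 6 lie in the brightest of 4 equal groups of genes by signal, where 67.1% of all genes were called higher, so the count is near that background. Lmnb1, a B-type lamin, had 1.25 (SE 0.13, limma adjusted p = 0.00345), whereas Lmnb2, also a B-type lamin, had 0.47 and did not pass (0.0588). Banf1, which links chromatin to the reforming envelope, had 0.81 and Tmpo, a lamina-associated protein, 0.67. Lmna, the A-type lamin, was 2.49-fold lower (log2 -1.31, SE 0.20, adjusted p = 0.00846), but it was above background on 3 of 4 arrays and its difference came to -0.30 with normexp background correction.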
